A study of Mus musculus with 6 samples.

Results

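Fragments of the transfer RNAs (tRNAs) for methionine (Met), lysine (Lys), arginine (Arg) and histidine (His) were measured by small RNA sequencing in cells isolated from mouse urinary bladder. They were every row of the tRNA count table named for initiator Met (iMet), elongator Met, Lys, Arg or His, 83 of 381 rows, and their counts were summed into 10 of the 71 anticodon sums of the table. The rows comprised 33 for Lys, 23 for Arg, 10 for His, 9 for iMet and 8 for elongator Met. The CYP group was given cyclophosphamide, an alkylating drug whose breakdown products reach the urine and injure the bladder lining. From 8 weeks of age these mice received 4 intraperitoneal doses, each of 80 mg/kg, spaced over days 2, 4, 6 and 8. Their bladder cells are labelled as 8 days after induction. The Control group received saline by the same route, and is listed with the same age of 8 weeks and the same injection days. Strain and sex are not given in the labels used here, and bladder cells of both groups were taken as a mixture, without a sort that the labels name. There were 3 CYP and 3 Control libraries, each from 100 ng of total RNA. Whether each library came from its own mouse is not stated, so the p-values speak of variation among these libraries, part of which may be technical. In a mixture of cells, fewer cells of a type and less RNA per cell cannot be told apart.

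A tRNA carries an amino acid to the ribosome and reads the codon with its anticodon. Initiator Met tRNA starts every cytosolic protein and elongator Met tRNA serves the Met codons inside it; they share the anticodon CAT and the synthetase that charges them, but are separate molecules. RNA polymerase III transcribes tRNA genes with a short 5′ leader and a 3′ trailer that ends in a run of U, RNase P removes the leader, RNase Z removes the trailer, and the letters CCA are then added to the 3′ end. Enzymes such as angiogenin cut mature tRNAs in the anticodon loop under stress, and other cuts in the T loop leave short 3′ pieces ending in CCA. His tRNA is the exception at the 5′ end, since an extra G is placed before its first base.

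The tRNA table gives a name and counts but no letters, so the sequences come from a second deposited table, of 1056 mappable sequences that the authors did not assign to a class. Within 50 bases of the 77 Met, Lys, Arg and His tRNA genes of RefSeq (GRCm38.p6, which is mm10), 64 of these sequences were found, at 24 genes, with 18249 unique molecular identifiers (UMIs, each standing for 1 captured cDNA) in all. RefSeq gene names cannot be matched to the row names of the tRNA table, and RefSeq does not set initiator apart from elongator Met. The table does not say whether its positions count from 0 or from 1, and they were read as counting from 0, on which all positions below rest. Read so, trailers on both strands start right after the annotated gene, while counting from 1 would start all 14 on the plus strand inside the gene by 1 base and all 16 on the minus strand 1 base later. The sequences below are examples of the main kinds of fragment.

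Of the 9 Lys sequences that ran from the leader into the tRNA, the one with most UMIs at each of 4 genes is shown, with the leader bases in capitals. The genes lie at chr19:12006039-12006111 (n-TKctt29, plus strand), chr19:12009696-12009768 (n-TKctt30, minus), chr11:69125176-69125248 (n-TKctt27, minus) and chr1:133033962-133034034 (n-TKctt26, plus).
n-TKctt29: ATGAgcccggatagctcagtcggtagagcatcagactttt
n-TKctt30: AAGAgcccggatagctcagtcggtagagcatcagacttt
n-TKctt27: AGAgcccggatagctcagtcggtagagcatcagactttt
n-TKctt26: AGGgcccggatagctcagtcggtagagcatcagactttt
They differed in the leader, of 3 or 4 bases, and shared the same first 35 bases of the tRNA. Each stopped in the anticodon loop, between positions 35 and 37 counted from the first base of the gene. In the 6 of the 9 Lys sequences that reached position 36, the anticodon at positions 34 to 36 read TTT, although RefSeq names these genes for the anticodon CTT.

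The 2 His sequences that began 1 base before the annotated gene, with that G in capitals, are shown because of the extra 5′ G of this tRNA. They are from chr3:96463972-96464043 (n-THgtg1, minus) and chr3:96435972-96436043 (n-THgtg2, plus), and both stopped at position 34, the first base of the anticodon.
n-THgtg1: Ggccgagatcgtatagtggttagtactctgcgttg
n-THgtg2: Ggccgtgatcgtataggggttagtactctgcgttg
Whether the genome also has a G at that place was not tested, since no genome sequence of this build was used here. Of 4 leader pieces of another His gene, at chr2:122375494-122375565 (n-THgtg4, minus), 2 ended at the base before the gene, with C and not G, and 1 of these is shown. The other 2 ended 2 and 3 bases before the gene.
n-THgtg4 leader: acaggtccctggtagctc

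The 3′ fragments, with CCA in capitals, numbered 10, of which 8 were from Arg genes and 2 from Met genes. These 5 are 22 bases long.
n-TRacg2: tcgactcctggctggctcgCCA
n-TRtcg4: tcgagtcccttcgtggtcgCCA
n-TRtct2: tcgagtcccggcggagtcgCCA
n-TRccg1: tcgagtcccatctgggtcgCCA
n-TMcat15: tcgaacctcagagggggcaCCA
The genes lie at chr9:123529425-123529497, chr11:115413779-115413851, chr3:122292948-122293032, chr11:107012866-107012938 and chr13:21169687-21169759. The 3 genes n-TRacg2, n-TRtcg4 and n-TRccg1 and the Met gene are 73 bases long. There the fragment began at position 55 and ended 3 bases past the gene, where an added CCA would stand. Whether the genome also has CCA at that place was not tested for any of the 10 fragments. n-TRtct2 is 85 bases long. Of the 10 fragments 7 opened with the letters TCGA, and 5 began at position 55 of their gene. A further 8 sequences, from 4 genes, began inside the tRNA and ran past its end without closing in CCA, with 853 UMIs in all. The one with most UMIs, 472, was from n-THgtg1 and ran from position 54 to 4 bases past the gene. Those 4 bases read CCAT, so CCA stands directly after the gene here too, followed by a T. Whether this CCA was added was not tested.
n-THgtg1, 3′ end: tcgaatccgagtcacggcaccat

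The trailers were the most abundant kind, with 30 sequences from 8 genes, and are shown with the closing run of T (U in the RNA) in capitals.
n-TRacg2: acgtgtgcgatcTTTT
n-THgtg8: tttagtagtaccgtcccTTT
n-THgtg8, longer: tttagtagtaccgtccctttgcagcTTTT
n-THgtg3: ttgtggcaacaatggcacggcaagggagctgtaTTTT
n-TKctt18: gtttagttttcggTTTT
Their genes are at chr9:123529425-123529497, chr3:96500366-96500437, chr2:122377363-122377434 and chr9:90126509-90126581. All 30 began at the base after the annotated gene, and 20 of the 30 ended in 2 or more T. A family of 13 trailers that open with the same 16 bases was split between n-THatg1 (8 sequences) and n-TRacg6 (5 sequences) by its last letters. Its gene of origin is therefore uncertain.

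**Figure D1:**
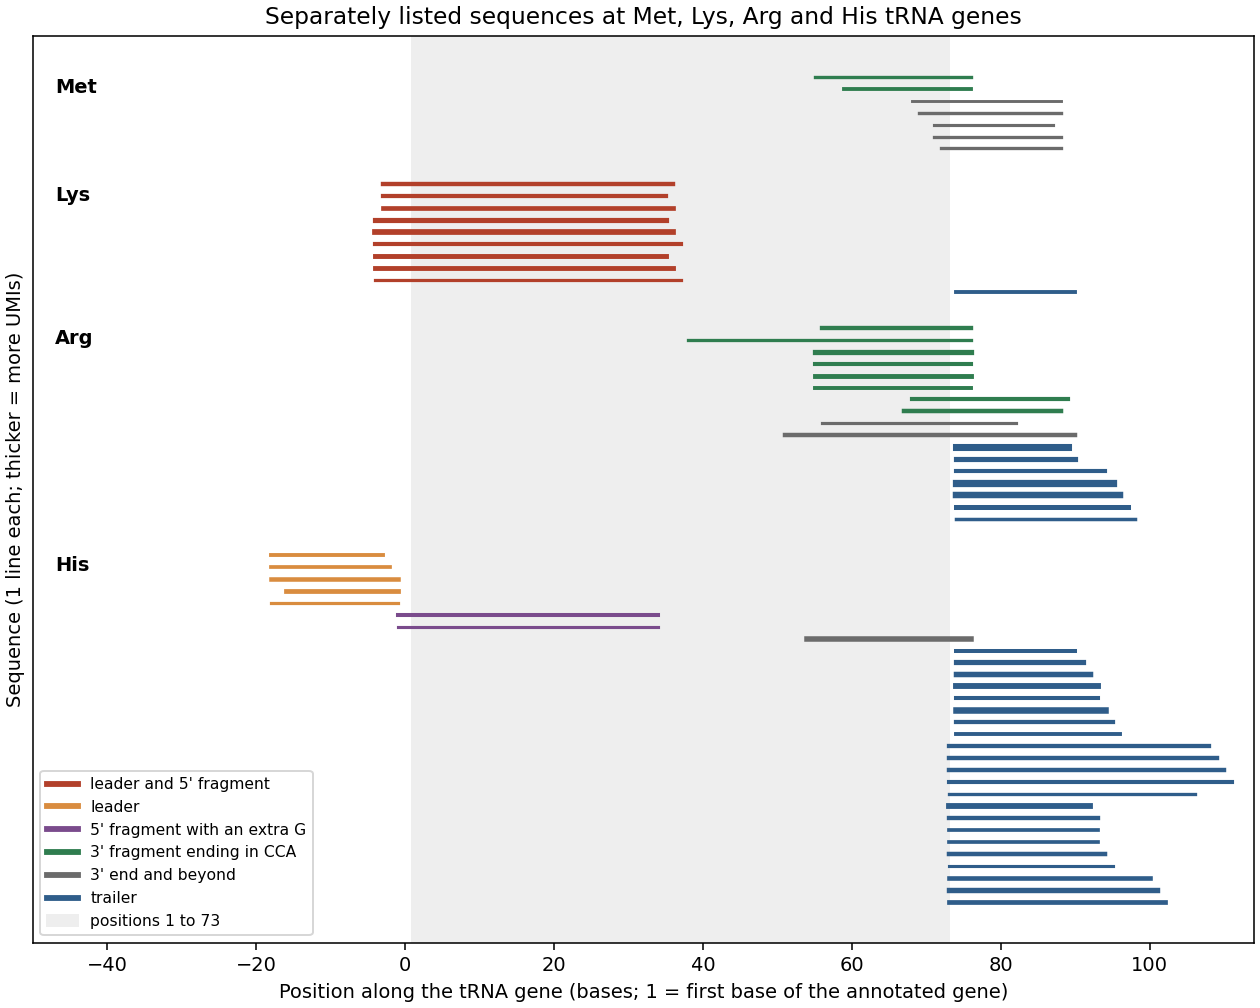
Each line is 1 of the 64 sequences, placed by its position in bases along its own tRNA gene, with line width growing with the log of its UMIs and colour giving the kind of fragment. The 9 Lys leader lines start 3 or 4 bases before the gene and stop between positions 35 and 37, the trailers all start at the base after the gene, and the shaded band spans positions 1 to 73 (n-TRtct1 and n-TRtct2, of 86 and 85 bases, run past it).

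The 6 libraries held 769538, 853326 and 596152 tRNA UMIs in CYP and 2212083, 994786 and 873718 in Control. Control 1 stood apart: tRNA took 12.9% of its reads, against 3.93% to 6.89% in the other 5 libraries, and Gly, Glu and Val tRNAs took 90.8% of its tRNA UMIs, against 70.0% to 84.7%. Reads discarded as too short made up 12.8%, 14.0% and 15.6% in CYP and 6.74%, 11.7% and 11.4% in Control. Levels below are in CPM, UMIs per 1000000 tRNA UMIs after trimmed-mean (TMM) scaling in edgeR. Scaling factors were fitted separately for gene rows, for anticodon sums and for sums over copies of a mature sequence. Levels and fold changes are therefore not on the same scale between these kinds, and a part can exceed its whole. UMIs count fragments and were not divided by length. Fold changes are log2 values of CYP over Control ± SE, and a call is an adjusted p below 0.05. The label of bladder cells was set against miRNA markers. The summed miR-143-3p and miR-145a-5p of smooth muscle ran from 249641 to 261863 per 1000000 miRNA UMIs in CYP and from 258736 to 281029 in Control. The 5 epithelial miRNAs (miR-200a-3p, miR-200b-3p, miR-200c-3p, miR-141-3p and miR-205-5p) summed to between 39190 and 42386 in CYP and between 35435 and 37503 in Control. Epithelial sums did not overlap between the groups, while those of striated muscle, endothelium, leukocytes and liver did. Red cell markers summed to between 38.2 and 88.5 in CYP and between 94.9 and 116.8 in Control. Within the epithelial list miR-200c-3p overlapped (1864 to 2183 in CYP, 1759 to 1903 in Control). So did miR-205-5p (13528 to 17411 in CYP, 12930 to 14172 in Control), while miR-200a-3p, miR-200b-3p and miR-141-3p did not. Within the leukocyte list miR-150-5p had 328, 329 and 353 per 1000000 in CYP and 776, 571 and 773 in Control, without overlap, while miR-223-3p had 1364, 1321 and 1660 in CYP and 1129, 1216 and 1329 in Control and overlapped. No marker was at 0 in all libraries. The part of cell mixture in the results was not tested.

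Initiator Met tRNA fragments were lower in CYP, and elongator Met fragments did not pass the test in either direction. The iMet sum was 3953, 4584 and 3833 CPM in CYP and 14872, 9274 and 6293 CPM in Control. Every CYP library was below every Control library, and Control 1 was the highest of all. The means were 4124 ± 403 CPM in CYP and 10146 ± 4355 CPM in Control (SD, n = 3 each), 2.46-fold lower in CYP (log2 −1.30 ± 0.31, edgeR adjusted p = 0.00871). Of the 10 anticodon sums it alone passed the edgeR test, and edgeR called none higher. Among all anticodon sums tested, 9 of 70 (12.9%) were lower and 1 of 70 (1.43%) was higher. The median log2 fold change was 0.03 over the 10 sums and −0.06 over all 70. Without Control 1 the iMet difference was smaller and still called (log2 −0.93, adjusted p = 1.44e-05). The call was lost when tRNA UMI totals were used without TMM (log2 −0.24, adjusted p = 0.741). It was also lost without CYP 1, CYP 2, CYP 3 or Control 2 in turn, where the fold change stayed between −1.38 and −1.25 with adjusted p between 0.0761 and 0.140.

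Elongator Met, which decodes the internal Met codons, had 2411, 2394 and 2378 CPM in CYP and 2385, 2271 and 2209 CPM in Control. The groups overlapped, with means of 2394 ± 16.4 CPM in CYP and 2289 ± 89.5 CPM in Control (log2 0.06 ± 0.19, adjusted p = 0.775). Its 2 main rows gave Met-CAT-1-2 at −0.18 ± 0.25 and Met-CAT-1-1 at 0.01 ± 0.14, neither called. All 8 elongator rows overlapped between the groups.

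The ratio of iMet to elongator Met UMIs needs no scaling between libraries. It was 1.64, 1.92 and 1.61 in CYP and 6.23, 4.08 and 2.85 in Control. The highest CYP ratio lay below the lowest Control ratio. The mean log2 ratio differed by −1.28 (exact two-sided permutation p = 0.1, the smallest that 3 against 3 libraries allow), and by −0.99 without Control 1. Counted against miRNA UMIs, iMet had 313.9, 493 and 432 UMIs per 1000000 in CYP and 1106, 819 and 548 in Control, again without overlap. All tRNA had 67184, 82251 and 63399 UMIs per 1000000 miRNA UMIs in CYP and 200566, 109189 and 71730 in Control, and there CYP 2 exceeded Control 3. All 3 Control libraries, high in iMet, also had fewer too-short reads than any CYP library. The part of these library differences in the iMet result was not tested.

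**Figure D2:**
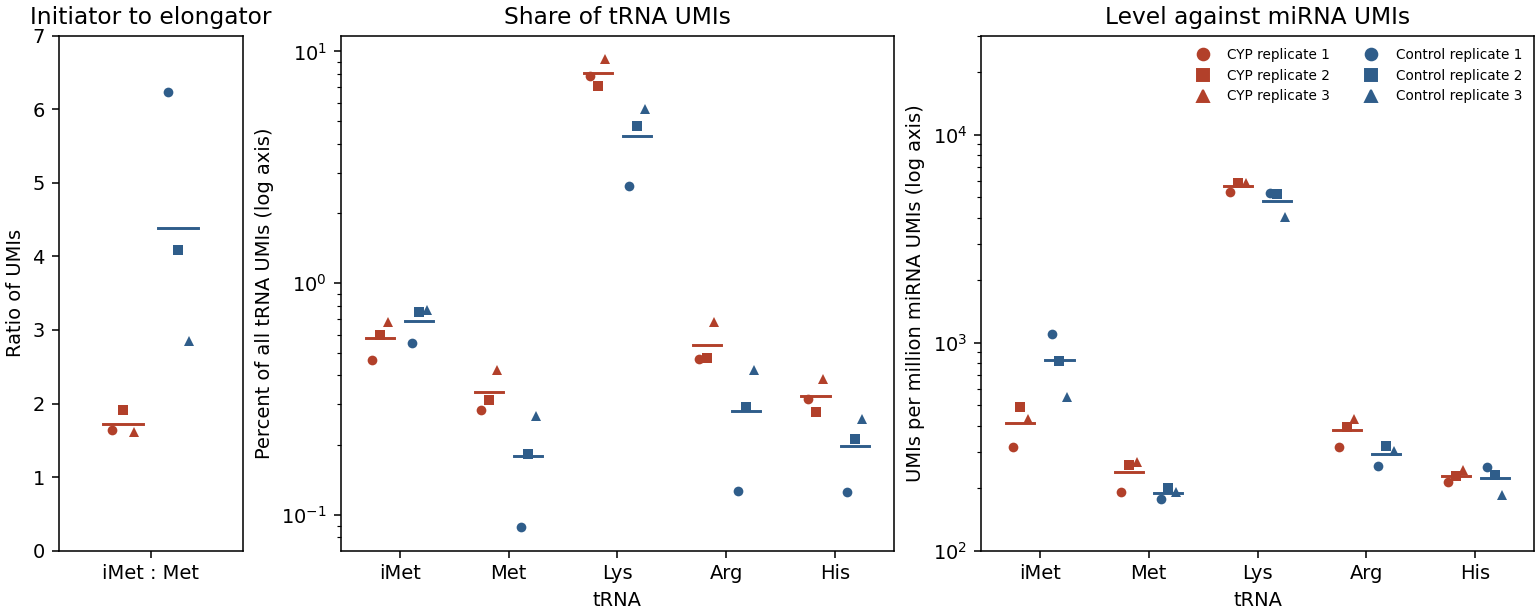
Left, the ratio of initiator to elongator Met UMIs in each library (linear axis); middle, the percent of all tRNA UMIs held by each amino acid (log axis); right, UMIs per 1000000 miRNA UMIs (log axis); points are libraries and lines are group means. The ratio is below 2 in all 3 CYP libraries and above 2.8 in all 3 Control libraries.

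The 9 iMet rows did not move alike. By the naming scheme of tRNA genes, the rows numbered iMet-CAT-1-1 to iMet-CAT-1-7 are 7 gene copies of 1 mature sequence, so their reads cannot be told apart within the tRNA and the split between copies is uncertain. iMet-CAT-1-4 held 48.5% of all iMet UMIs, with 1128, 1717 and 1310 CPM in CYP and 9490, 5129 and 2994 CPM in Control. It was lower in all 3 CYP libraries (log2 −2.08 ± 0.47, adjusted p = 0.174), and its share of iMet UMIs was 30.2%, 38.1% and 34.7% in CYP and 59.5%, 55.2% and 47.0% in Control. iMet-CAT-3-1, which has its own mature sequence, had 188, 219 and 263 CPM in CYP and 932, 475 and 414 CPM in Control (−1.44 ± 0.32, adjusted p = 0.174). Its share of iMet UMIs was 5.62% ± 1.17 in CYP and 5.82% ± 0.70 in Control. iMet-CAT-2-1, the third mature sequence, had 69.7, 75.8 and 81.9 CPM in CYP and 35.3, 41.1 and 93.6 CPM in Control, with a value of 0.39 ± 0.36 and no call.

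Among the remaining copies of the first sequence, iMet-CAT-1-2 was at −1.22 ± 0.31, iMet-CAT-1-6 at −0.95 ± 0.30 and iMet-CAT-1-7 at −0.82 ± 0.28. iMet-CAT-1-3 was at −0.39 ± 0.16, iMet-CAT-1-1 at −0.33 ± 0.17 and iMet-CAT-1-5 at 0.17 ± 0.16. In 7 of the 9 rows all CYP libraries lay below all Control libraries, and the 2 exceptions were iMet-CAT-1-5 and iMet-CAT-2-1; 67 of all 369 rows did so (18.2%). None of the 9 was called by edgeR, as none of all 369 rows was (0%). DESeq2 called 6 of the 9 lower and 64 of all 369 rows in either direction (17.3%). With iMet-CAT-1-4 left out of the sum, a choice made after its values were seen, iMet stood at −0.70 ± 0.25 with adjusted p = 0.0792.

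**Figure D3:**
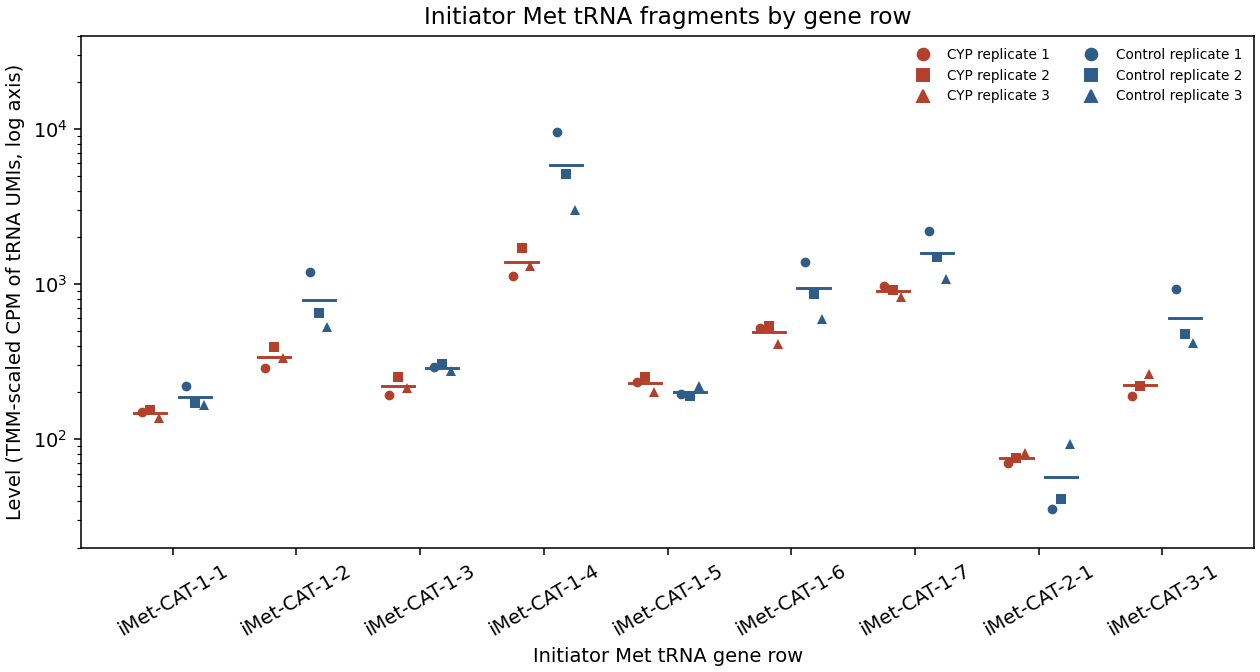
Level of each of the 9 initiator Met gene rows in the 6 libraries (CPM, log axis), with group means as lines. iMet-CAT-1-4 is the highest row and spans 1128 to 1717 CPM in CYP and 2994 to 9490 CPM in Control, while iMet-CAT-1-5 and iMet-CAT-2-1 overlap between the groups.

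Lys tRNAs made up 79.0% of the UMIs of the 5 kinds of tRNA, and neither anticodon was called. Lys-CTT, which reads AAG codons, had 46012, 35737 and 34224 CPM in CYP and 55625, 43600 and 31952 CPM in Control. The groups overlapped (log2 −0.18 ± 0.43, adjusted p = 0.737). Lys-TTT, which reads AAA codons, had 20574, 18515 and 18041 CPM in CYP and 15040, 15296 and 14380 CPM in Control. Every CYP library was above every Control library, yet the difference was not called (0.35 ± 0.33, adjusted p = 0.400). The UMI ratio of Lys-TTT to Lys-CTT was 0.447, 0.518 and 0.527 in CYP and 0.270, 0.351 and 0.450 in Control, with CYP 1 just under Control 3.

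The largest Lys row, Lys-CTT-3-3, held 42.2% of Lys-CTT UMIs and spread widely, with 17768, 12159 and 11844 CPM in CYP and 33677, 20195 and 12015 CPM in Control. Control 1 was the highest and Control 3 lay within the CYP range (−0.66 ± 0.52, adjusted p = 0.409). Another copy of the same mature sequence, Lys-CTT-3-4, was at 0.32 ± 0.34. The 2 main Lys-TTT rows, Lys-TTT-1-6 and Lys-TTT-1-4, were at 0.34 ± 0.29 and 0.29 ± 0.30. Of the 33 Lys rows 30 passed the filter on low counts, and 24 of these had values above 0 and 6 below. Among all 369 rows 214 were above 0 and 155 below. The 3 rows left out, Lys-CTT-8-1, Lys-CTT-11-1 and Lys-CTT-14-1, held between 12 and 22 UMIs in all 6 libraries together. Lys-CTT-3-6, named after its values were seen because DESeq2 called it, had 2207, 2355 and 2111 CPM in CYP and 5087, 4509 and 2934 CPM in Control (−0.91 ± 0.31, edgeR adjusted p = 0.186).

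Arg tRNAs, with 5 anticodons, held 5.05% of these UMIs. Arg-TCG had 333, 340.3 and 412 CPM in CYP and 226, 307 and 275 CPM in Control, and no Control library reached the CYP range (log2 0.43 ± 0.16, adjusted p = 0.0735). Arg-ACG was similar, with 466, 517 and 636 CPM in CYP and 309, 452 and 454 CPM in Control (0.41 ± 0.16, adjusted p = 0.0735). Neither passed edgeR's threshold; DESeq2 called both higher, at adjusted p = 0.0165 for Arg-TCG and 0.0286 for Arg-ACG, where it called 28 of all 70 sums (40%). Without Control 1, the lowest library for both, their values were 0.31 and 0.25.

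Arg-CCT had 1554, 1295 and 1220 CPM in CYP and 1159, 1129 and 1209 CPM in Control, with all CYP libraries above (0.22 ± 0.14, adjusted p = 0.213). Arg-CCG went the other way, with 629, 617 and 641 CPM in CYP and 738, 758 and 707 CPM in Control, all CYP libraries below (−0.22 ± 0.12, adjusted p = 0.163). Arg-TCT averaged 930.2 ± 56.9 CPM in CYP and 929 ± 84.0 CPM in Control (0.00 ± 0.13, adjusted p = 0.986). Arg-CCG was carried by 1 row, Arg-CCG-3-1, with 89.3% of its UMIs and a value of −0.38 ± 0.14; its second row, Arg-CCG-2-1, stood at 0.28 ± 0.29. The main rows of the other Arg anticodons were Arg-ACG-1-3 (0.59 ± 0.30), Arg-ACG-3-2 (0.08 ± 0.28), Arg-TCG-2-1 (0.09 ± 0.20) and Arg-TCG-1-1 (0.43 ± 0.28). Arg-CCT-4-1 and Arg-CCT-3-1 were at 0.09 ± 0.16 and 0.15 ± 0.15, and Arg-TCT-2-1 and Arg-TCT-4-1 at −0.37 ± 0.18 and 0.07 ± 0.19. None of these rows was called by edgeR; DESeq2 called Arg-CCG-3-1 lower. Of the 23 Arg rows 20 had values above 0, against 214 of all 369 rows.

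His has a single anticodon in the table, GTG, with 2690, 2136 and 2171 CPM in CYP and 3383, 2630 and 2135 CPM in Control. The groups overlapped (−0.22 ± 0.23, adjusted p = 0.426). Its 8 copies of 1 mature sequence split by sign: the largest, His-GTG-2-8, had 780, 563 and 489 CPM in CYP and 1606, 924 and 657 CPM in Control (−0.80 ± 0.35, adjusted p = 0.223), and the second, His-GTG-2-6, was at −0.25 ± 0.18. The whole set of 10 His rows ran from −0.80 to 0.44, with 6 above 0 and 4 below, against 214 above and 155 below over all 369 rows.

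**Figure D4:**
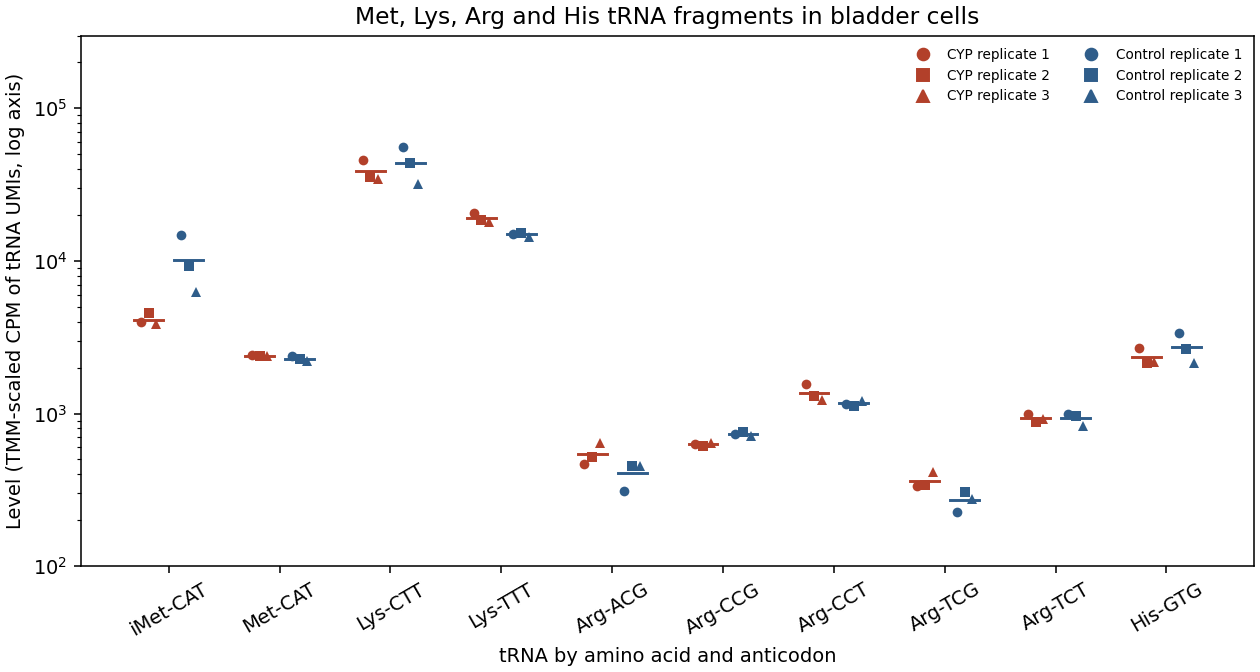
Level of the 10 anticodon sums in the 6 libraries (CPM of tRNA UMIs after TMM scaling, log axis), with group means as lines. Only the iMet sum was called by edgeR, and DESeq2 also called Arg-ACG and Arg-TCG. Lys-TTT, Arg-ACG, Arg-CCT and Arg-TCG have all 3 CYP libraries above the 3 Control libraries, as 20 of all 70 sums do (28.6%), and iMet and Arg-CCG have all 3 below, as 15 of 70 do (21.4%).

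Over single gene rows edgeR called none of the 80 members tested and none of all 369 rows (0%). At an unadjusted p below 0.05 there were 10 members, against 81 of all 369 rows (22%). DESeq2 called 10 members, 9 lower and 1 higher, against 64 of 369 (17.3%); they were 6 iMet rows, Arg-CCG-3-1, His-GTG-2-8, Lys-CTT-3-6 and Lys-TTT-2-1. Without Control 1 edgeR called 6 members, 5 of them iMet rows and the other Lys-CTT-3-6, against 45 of 376 rows (12%). Without Control 3 it called 9 members, against 64 of 374 (17.1%). In 15 members all CYP libraries were above all Control libraries, against 54 of all 369 rows (14.6%). In 10 members, 7 of them iMet rows, all were below, against 67 of 369 (18.2%). The median log2 fold change was 0.20 over the 80 members and 0.12 over all 369 rows, and by kind it was −0.82 for iMet, 0.07 for Met, 0.28 for Lys, 0.21 for Arg and 0.14 for His.

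**Figure D5:**
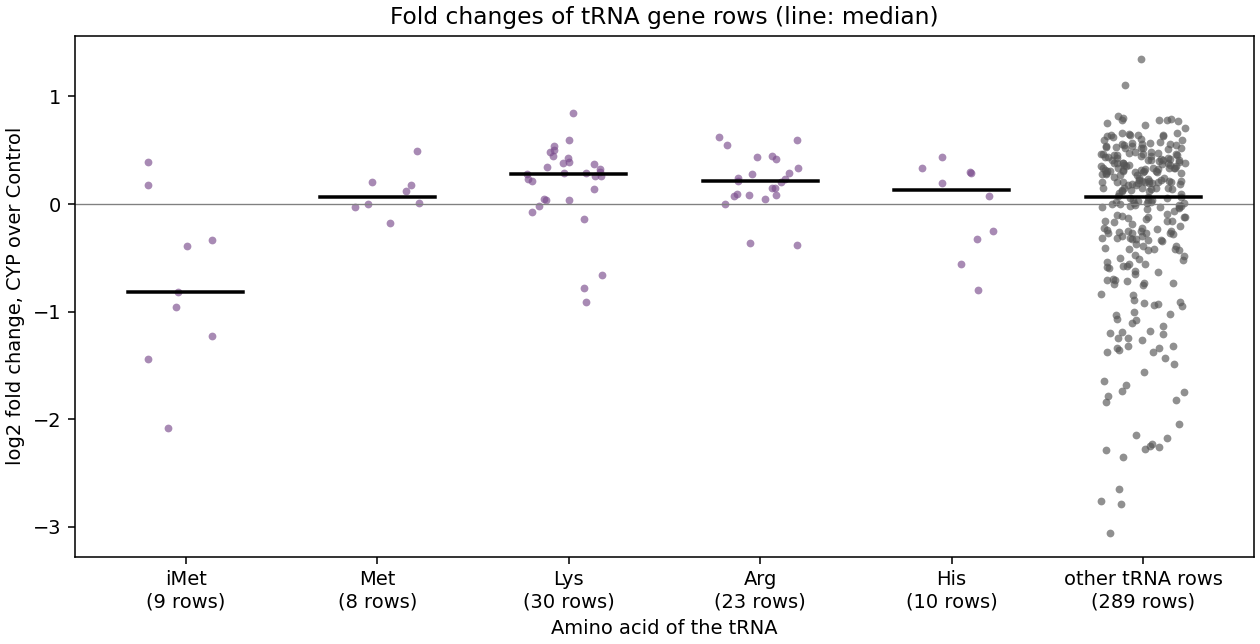
Log2 fold change of CYP over Control for each tested tRNA gene row, by amino acid, with the 289 other tRNA rows at the right and the median as a black line. The iMet rows run from −2.08 to 0.39 with a median of −0.82, and the other 4 kinds have medians between 0.07 and 0.28.

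The copies of 1 mature sequence were uneven. There were 12 sets with 45 rows, and 38 rows had a mature sequence of their own. In 7 of the 12 sets, copies had values of both signs. The highest and lowest copies differed 20.03-fold in UMIs for iMet-CAT-1 and 14.7-fold for Lys-CTT-3. After copies were summed by mature sequence, none of the 47 member sums was called by edgeR, where 3 of all 215 sums were lower (1.4%) and none was higher (0%). At an unadjusted p below 0.05 there were 4 of 47, against 45 of 215 (20.9%), and DESeq2 called 3, against 32 of 215 (14.9%): iMet-CAT-1, iMet-CAT-3 and Arg-CCG-3, all lower. iMet-CAT-1 was at −1.48 ± 0.41 (edgeR adjusted p = 0.0991) and iMet-CAT-3 at −1.50 ± 0.33 (0.0766). iMet-CAT-3 and Arg-CCG-3 hold only the rows iMet-CAT-3-1 and Arg-CCG-3-1, with the same UMIs, so they are not separate results. As a gene row iMet-CAT-3-1 was at −1.44 ± 0.32 (edgeR adjusted p = 0.174), since scaling and adjustment were refitted here. The largest Lys sum, Lys-CTT-3, had 34568, 26131 and 25904 CPM in CYP and 53765, 36276 and 24583 CPM in Control, and the groups overlapped (−0.40 ± 0.47, adjusted p = 0.588). Lys-TTT-1 had 17711, 16126 and 16463 CPM in CYP and 15588, 14252 and 13018 CPM in Control (0.23 ± 0.37, edgeR adjusted p = 0.65). Every CYP library was above every Control library, as in 36 of all 215 sums over copies and 8 of the 47 members. Its 15588 CPM in Control 1 exceeds the 15040 CPM given above for the whole Lys-TTT sum, because the scaling factors differ.

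As shares of all tRNA UMIs the members behaved differently from their scaled levels. Together they took 9.41%, 8.77% and 11.5% in CYP and 3.51%, 6.20% and 7.34% in Control. No Control library reached the CYP range, and Control 1, where Gly, Glu and Val tRNAs took most, was the lowest. Lys shares were 8.09% ± 1.11 in CYP and 4.34% ± 1.55 in Control, and Arg, His and elongator Met shares were likewise higher in CYP in every library. Higher shares were not particular to these tRNAs. With tRNA UMI totals and no TMM, the median log2 fold change was 1.00 over all 369 gene rows and 1.05 over the 80 members. How many other amino acids had shares without overlap was not counted. The iMet share overlapped, at 0.467%, 0.600% and 0.681% in CYP and 0.551%, 0.750% and 0.764% in Control. The exact two-sided permutation p was 0.1 for Met, Lys, Arg, His and all 5 (0.12 after adjustment over the 6 shares) and 0.3 for iMet, where 0.1 is the smallest possible. Against miRNA UMIs the 5 kinds together had 6321, 7214 and 7263 per 1000000 in CYP and 7043, 6770 and 5263 in Control, and overlapped.

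The sequences printed above and their relatives at these genes were tested in their own table of unassigned sequences, a step added after the data were seen. None of the 56 that passed the filter was called by edgeR, where 13 of all 942 were (1.38%). At an unadjusted p below 0.05 there were 5 of 56, against 115 of 942 (12.2%). The median of their log2 values was 0.22, and that of all 942 was 0.08. The 9 Lys leader sequences summed to 550, 420 and 278 UMIs in CYP and 275, 247 and 214 in Control; all 8 that were tested had values above 0, and the most abundant, n-TKctt29 as printed, had 173, 119 and 104 UMIs in CYP and 58, 70 and 74 in Control (0.79, adjusted p = 0.158). Scaled within that table, the 9 summed to 6284 ± 1752 CPM in CYP and 4310 ± 1099.8 CPM in Control, and the groups overlapped.

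Arg 3′ fragments ending in CCA summed to 249, 261 and 200 UMIs in CYP and 150, 145 and 204 in Control. Scaled, they were 3613, 3971 and 3225 CPM in CYP and 2765, 2825 and 2906 CPM in Control, without overlap. The unscaled UMIs did overlap, and edgeR called no single sequence. How often groups fail to overlap among all sequences of that kind of table was not counted. The 30 trailers summed to 2452, 2237 and 2826 UMIs in CYP and 1965, 1556 and 2360 in Control, and when scaled the groups overlapped (38393 ± 6260 CPM in CYP and 33387 ± 2962 CPM in Control). The Arg trailer of n-TRacg2 as printed had 421, 400 and 437 UMIs in CYP and 370, 289 and 542 in Control (−0.07). The shorter His trailer of n-THgtg8 had 167, 127 and 134 UMIs in CYP and 73, 65 and 100 in Control (0.69, adjusted p = 0.125), while its longer form had 62, 59 and 74 in CYP and 71, 63 and 85 in Control (−0.33). The 8 sequences running past the tRNA end without a CCA end summed to 130, 179 and 112 UMIs in CYP and 138, 118 and 176 in Control. Among them, the n-THgtg1 sequence has CCA and then a T after the gene. It had 79, 82 and 54 UMIs in CYP and 103, 60 and 94 in Control (−0.43, edgeR adjusted p = 0.519). The 2 His 5′ fragments with the extra G summed to 30, 19 and 15 UMIs in CYP and 33, 15 and 18 in Control.

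Other short RNAs made or cut in the same system were looked up by name in the table of other RNA. Of 11 names, 8 were found, among them Rpph1 and Rmrp, the RNA parts of RNase P and RNase MRP, Rn7sk, Rn7s1, Rn7s2, the Y RNAs Rny1 and Rny3, and the vault RNA Vaultrc5. None was called by edgeR, at none of 679 rows overall (0%), and none had an unadjusted p below 0.05, against 84 of 679 (12.4%). Their median was 0.33, against −0.03 over all 679. Rpph1 had 151, 213 and 138 UMIs in CYP and 48, 92 and 168 in Control (0.47 ± 0.27), with Control 1 the lowest, as it also was for Rmrp, Rn7sk, Rn7s1, Rn7s2 and Vaultrc5. Rny3 had 2799, 2271 and 2398 UMIs in CYP and 2890, 2145 and 2407 in Control (−0.37 ± 0.27).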

How the data were processed

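The deposited tables hold whole-number counts of reads and of UMIs per tRNA, miRNA, other RNA and uncharacterized sequence in each library, not normalized, per the file headers. The submitters' processing notes name STAR 2.6, Trim Galore, DESeq2 and FastQC 0.11.7, and the build mm10. How reads shared by gene copies were counted, and by which tool, is not given in the sources used. UMI counts of the whole tRNA table were tested by gene row, by anticodon sum and by sum over copies of a mature sequence, with the robust quasi-likelihood test of edgeR 4.0.16 (R 4.3.3), TMM scaling and edgeR's filter (minimum count 10, minimum total 15). Adjustment was by Benjamini-Hochberg over all rows tested. DESeq2 1.42.0 served as an alternative. Each SE is the log2 fold change divided by the square root of its F statistic. Ratios and shares were compared by exact permutation. The script was run on simulated counts with the same spread for all rows and changes in both directions. That setting differs from these libraries, so it does not test their scaling. A tRNA library held between 596152 and 2212083 UMIs, with 1.03 to 1.05 reads per UMI, and the counting error of rows of few UMIs is large. Rows were named by rule: every anticodon sum, the 2 gene rows of each anticodon with the highest mean level, and all iMet rows. The members and lists were chosen with earlier results of these data known. Sequences are from the deposited table, placed at RefSeq genes of GRCm38.p6, with chr18 left out. Replicate numbers were not taken as pairs. Same-numbered libraries correlated at 0.34, −0.02 and 0.45 after removal of group means, and differently numbered ones between −0.44 and 0.25. These values do not settle whether the numbers are pairs.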

Additional observations from a re-analysis of the deposited data

How the results depend on the processing

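The iMet sum was lower in CYP under all 17 alternatives, with log2 values from −1.59 to −0.24. With tRNA UMI totals and no TMM, the median of all gene rows moved to 1.00 and that of all anticodon sums to 0.75. The iMet sum was then −0.24 and no member sum was called lower, and 1 sum over copies was called higher. Under these totals Lys-CTT (0.77), His-GTG (0.72), Arg-CCG (0.63), iMet-CAT-1-1 (0.64), iMet-CAT-1-3 (0.52), iMet-CAT-1-7 (0.27) and iMet-CAT-1-6 (0.15) changed sign. With upper-quartile factors 2 member sums were called lower, and Arg-TCT (−0.26), Met-CAT (−0.20) and Arg-CCT (−0.037) changed sign. Scaled to miRNA UMIs, iMet kept its call (−1.13, adjusted p = 0.0491). DESeq2 called 1 member row higher and 9 lower, 2 anticodon sums higher and 3 sums over copies lower; read counts called 1 sum over copies lower. Arg-TCT, near 0, was −0.021 with RLE factors, −0.020 with DESeq2 and −0.010 with read counts, and ran from −0.050 to 0.094 with 1 library left out. Lys-CTT ran from −0.34 to 0.016 (without Control 1) in the same way. Leaving out 1 library at a time gave iMet sums from −1.51 to −0.93, from 0 to 1 member sums called lower, from 0 to 8 member rows lower and 0 to 1 higher, and from 0 to 4 sums over copies lower and 0 to 1 higher. Without gene copy 1-4 the iMet sum was −0.70. The cause of these changes was not tested, beyond the fewer samples of the smaller fits. Whether the replicate numbers pair the libraries is not known. An edgeR fit with the replicate block called 2 member sums higher (Arg-ACG and Arg-TCG, adjusted p = 0.00507 each) and iMet lower (−1.21). These were among 25 of 70 sums called, against 10 without the block.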
